A study of Homo sapiens with 9 samples.

Results

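The genes described here make prostaglandins, leukotrienes and nitric oxide, or receive and remove their products. They are 10 genes taken by symbol from a table of 19389 rows: PLA2G4A, PTGS1, PTGS2, PTGES, PTGES2, PTGES3, HPGD, PTGER4, ALOX5AP and NOS2. All 10 had 1 row each, and the rule that took them used their symbols and no threshold on their values. The list was drawn up with earlier results of these data known, so counts over it do not rest on an independent choice. RNA came from SW1353, a line from a human chondrosarcoma (a cartilage tumour), in 9 libraries. The untreated group had 3 libraries of cells that received neither agent. The IL-1β group had 3 libraries of cells exposed for 20 h to 20 ng/mL of interleukin-1β (IL-1β), a cytokine that drives inflammation in joints. The PBSL group had 3 libraries of cells given PBSL for 2 h and then IL-1β at the same dose and for the same time. PBSL stands for material from larvae of the beetle Protaetia brevitarsis seulensis, and which of the listed concentrations was sequenced is not given. No library had PBSL without IL-1β, so a change under PBSL is a change in cells that also had the cytokine. The labels do not say that the 3 libraries of a group were separate cultures, so the p-values below measure the spread between these libraries, which may be technical.

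Prostaglandin synthesis starts when the cytosolic phospholipase A2 encoded by PLA2G4A frees arachidonic acid from membranes. A cyclooxygenase, encoded by PTGS1 (the isoform made in many resting cells) or PTGS2 (the inducible isoform), turns it into prostaglandin H2, and the synthases encoded by PTGES, PTGES2 and PTGES3 turn that into prostaglandin E2. PTGER4 encodes the EP4 receptor for prostaglandin E2, and HPGD the dehydrogenase that inactivates it. ALOX5AP encodes FLAP, which presents arachidonic acid to 5-lipoxygenase for leukotriene synthesis, and NOS2 the inducible nitric oxide synthase. In cartilage, IL-1β is known to induce cyclooxygenase 2, the inducible prostaglandin E synthase and inducible nitric oxide synthase.

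The sequences upstream of PTGS2, PTGES and PTGS1 are shown because PTGS2 and PTGES were higher and PTGS1 lower with IL-1β. Each is the 250 bases before the gene's start in RefSeq, build GRCh38.p14, read 5′ to 3′ on the gene's strand, at chr1:186680424-186680673 (minus strand) for PTGS2, chr9:129753043-129753292 (minus strand) for PTGES and chr9:122370283-122370532 (plus strand) for PTGS1. PTGS1 has 2 starts in the RefSeq table, and the one farther upstream is used. Of the 10 genes, 9 matched that table, with 13 starts in all. Capitals mark matches, on either strand, to a loose NF-κB pattern (GGGNNNNNCC), a C/EBP pattern (TTNNGNAA), the core of a cyclic AMP response element (CGTCA), an AP-1 pattern (TGANTCA), a GC box (GGGCGG) or a TATA box (TATAAA).
PTGS2: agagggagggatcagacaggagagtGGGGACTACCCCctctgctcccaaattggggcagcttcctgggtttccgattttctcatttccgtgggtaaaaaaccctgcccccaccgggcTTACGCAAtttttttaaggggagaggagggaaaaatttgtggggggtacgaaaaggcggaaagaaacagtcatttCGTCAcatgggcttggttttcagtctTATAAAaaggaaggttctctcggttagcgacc
PTGES: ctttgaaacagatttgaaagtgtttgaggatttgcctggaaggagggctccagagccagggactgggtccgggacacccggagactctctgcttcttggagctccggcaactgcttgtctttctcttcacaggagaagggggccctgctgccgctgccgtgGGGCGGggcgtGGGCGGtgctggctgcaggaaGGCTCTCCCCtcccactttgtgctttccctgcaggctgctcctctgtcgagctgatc
PTGS1: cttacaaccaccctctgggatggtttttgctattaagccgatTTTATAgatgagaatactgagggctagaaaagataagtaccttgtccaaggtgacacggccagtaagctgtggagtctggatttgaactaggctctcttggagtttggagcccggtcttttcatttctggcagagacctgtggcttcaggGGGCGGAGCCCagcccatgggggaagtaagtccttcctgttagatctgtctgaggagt

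Counting the base just before the start as -1, the PTGS2 window held overlapping loose NF-κB matches in the run GGGGACTACCCC from -225 to -214. It also held a C/EBP match, TTACGCAA, from -133 to -126, a cyclic AMP response element core from -58 to -54 and a TATA box from -32 to -27. The PTGES window held GC boxes from -89 to -84 and from -78 to -73 and a loose NF-κB match on the other strand from -57 to -48. In the PTGS1 window, a GC box from -58 to -53 overlapped loose NF-κB matches from -58 to -48, and TATAAA was on the other strand from -208 to -203. The strict NF-κB consensus had no match in these 3 windows. Among windows not shown, that of PTGER4 held 1 strict match and that of PTGES3 held 5 loose ones, and neither gene passed the test with IL-1β. The windows of PLA2G4A and ALOX5AP, which rose with IL-1β, held no match to any of these patterns. Of 35116 windows of the same length in the RefSeq table, 54.4% held the loose NF-κB pattern, 5.2% the strict consensus, 33.2% the C/EBP pattern, 21.2% CGTCA, 6.6% the AP-1 pattern, 42.6% the GC box and 10.7% TATAAA. A match describes the letters only, and no binding was measured.

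The deposited values are normalized expression values, not counts. They are scaled per transcript length, so levels of different genes can be set side by side, but the number of reads behind a value is unknown. They summed to between 523758 and 553196 per library, and between 11562 and 11727 genes per library reached a value of 1. On the second principal component, PBSL 1 (-0.578) lay between the IL-1β libraries (11.5 to 12.4) and PBSL 2 and PBSL 3 (-18.2 and -16.8). Of 11 chondrocyte markers, 5 reached 1 in any library, COL2A1 (type II collagen) reached 0.027 at most, and CHAD was listed at 0 throughout, while SOX9, a chondrocyte transcription factor, averaged 12.02 in untreated cells. The summed chondrocyte markers were at 18.7 to 20.9 in untreated, 14.2 to 15.7 in IL-1β and 12.7 to 14.5 in PBSL libraries. SOX9, COL11A1 and HAPLN1 made up most of this sum, while ACAN (aggrecan) went the other way, averaging 0.501, 1.43 and 1.8. Summed epithelial markers, of which 3 of 5 reached 1, were at 137 to 154, 72.7 to 73.9 and 54.2 to 73.5. KRT8 and KRT18 made up most of this, and KRT19 reached 1 in 1 library only, untreated 1 (7.95). None of 4 endothelial markers reached 1. The chondrocyte and epithelial sums moved with the groups, and their part in the results below was not tested.

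The 10 genes covered a wide range of levels. In untreated cells PTGES3 was highest at 225 ± 8.94 (mean ± SD, n = 3, as for every such value here), followed by PTGES2 at 24.2 ± 0.56, ALOX5AP at 5.51 ± 0.439, PTGS1 at 3.12 ± 0.183 and PTGER4 at 1.68 ± 0.187. PLA2G4A, PTGS2 and PTGES came next, and neighbours among these 3 had overlapping libraries. HPGD and NOS2 were below 1 in all 9 libraries. With IL-1β, PTGS2 stood next after PTGES2, overlapping ALOX5AP, and PTGES came after those, while PLA2G4A, PTGS1 and PTGER4 formed a run of overlapping neighbours below them. With PBSL and IL-1β the first 8 places were the same as with IL-1β alone, but PTGS2 no longer overlapped ALOX5AP. PLA2G4A (lowest library 2.033) also no longer overlapped PTGS1 (highest 2.03), though only barely. Of the 10 genes, 8 reached 1 in at least 3 libraries and were tested with limma. PTGES passed only through libraries given IL-1β, since its untreated libraries were all below 1. PTGS2 and PLA2G4A also had untreated libraries below 1, so they too passed only with the help of libraries given IL-1β.

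**Figure D1:**
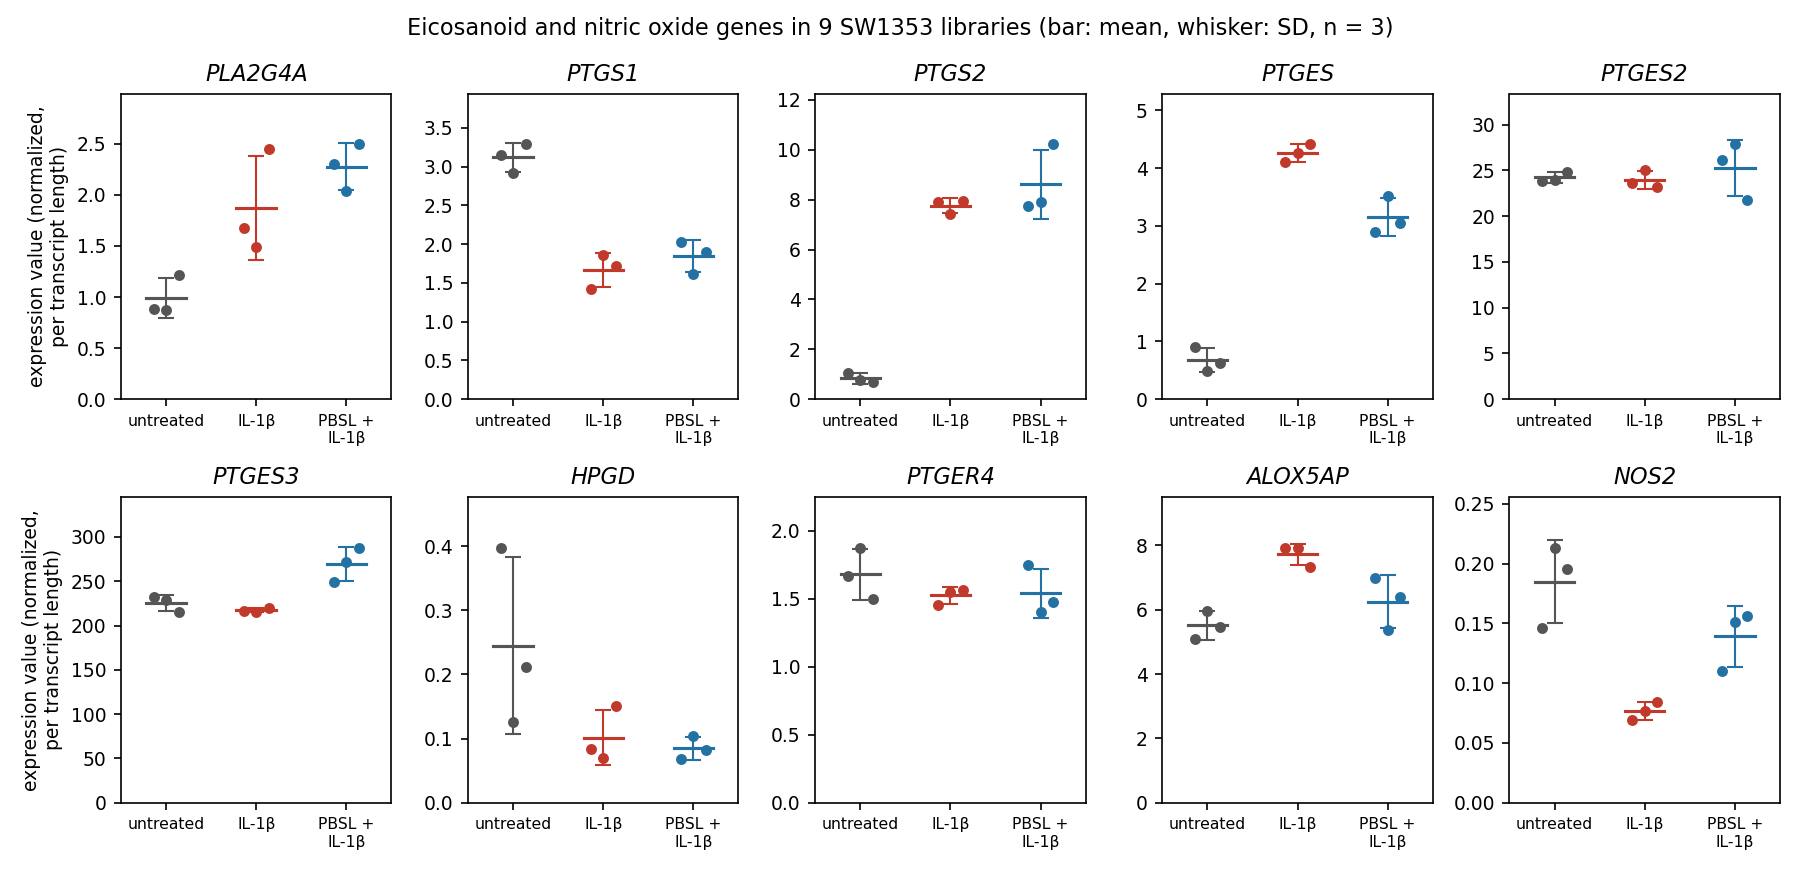
Expression value of each of the 10 genes (vertical axis, normalized per transcript length, starting at 0 and scaled per gene) in untreated, IL-1β and PBSL + IL-1β libraries (horizontal axis). Points are libraries, bars means and whiskers SDs of 3; PTGS2 and PTGES are low in the untreated libraries and high in the other 6, PTGS1 shows the opposite, and HPGD and NOS2 stay below 1.

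IL-1β against untreated cells shows how these genes responded to the cytokine. PTGS2, PTGES, PLA2G4A and ALOX5AP rose and PTGS1 fell, while PTGES2, PTGES3 and PTGER4 did not pass the test. The genes that rose encode the phospholipase, the inducible cyclooxygenase, 1 of 3 prostaglandin E synthases and FLAP of the leukotriene branch. In bulk RNA, fewer cells making a transcript and less of it per cell cannot be told apart. Of 8 genes tested, 4 were higher, where 16.2% of all 11924 tested genes were, and 1 was lower, where 16% were. Those higher include PTGS2, PTGES and PLA2G4A, which passed the filter only with libraries given IL-1β, where they are high. The count of genes higher therefore leans upward and is a description only. IL-1β and untreated libraries were fully apart for 5 of the 8, against 52.8% of all tested genes, a similar share. The median log2 fold change of the 8 was 0.20, against -0.0049 for all tested genes.

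PLA2G4A lies on chromosome 1 (hg38, 186828953 to 186988981, plus strand, GENCODE 29), 148.5 kb from PTGS2. Its values were 0.885, 0.871 and 1.22 in untreated cells and 1.68, 1.49 and 2.45 with IL-1β. Every IL-1β library was above every untreated one, with IL-1β 3 the highest. The means, 0.99 ± 0.195 and 1.87 ± 0.506, stood 1.89-fold apart, and the log2 fold change fitted after adding 1 to each value was 0.52 (SE 0.123, 95% interval 0.25 to 0.79, adjusted p = 0.00672). Adding 1 shrinks the fold of genes near 1, and with 0.1 added it was 0.84.

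The cyclooxygenases moved in opposite directions. PTGS2 (chromosome 1, 186671791 to 186680427, minus strand) was at 1.07, 0.765 and 0.676 in untreated cells and at 7.92, 7.43 and 7.94 with IL-1β. The groups were far apart, and the 3 IL-1β libraries lay close together. Its mean was 9.28-fold higher with IL-1β (log2 fold change 2.26, SE 0.106, 95% interval 2.03 to 2.49, adjusted p = 1.97e-08). PTGS1 (chromosome 9, 122370530 to 122395703, plus strand) went the other way, from 3.15, 2.92 and 3.29 to 1.43, 1.86 and 1.72. No library of one group reached the other. Its mean was 0.535 times that of untreated cells (log2 fold change -0.63, SE 0.0891, 95% interval -0.82 to -0.43, adjusted p = 0.000203). AL162424.1 overlaps PTGS1 on the same strand, and how reads shared with it were counted is not stated.

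The cyclooxygenase that was the lesser one in untreated cells was thus the major one with IL-1β. PTGS2 made up 25.4%, 20.7% and 17.1% of the summed PTGS1 and PTGS2 values in untreated libraries, and 84.7%, 80% and 82.2% with IL-1β. The means were 21.1% ± 4.15 and 82.3% ± 2.37. A 2-sided exact permutation test of 3 against 3 libraries gave p = 0.1, the smallest it can give.

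Of the 3 prostaglandin E synthase genes, only PTGES passed the test in this comparison. PTGES encodes the membrane-bound, inducible synthase (chromosome 9, 129738331 to 129753047, minus strand) and went from 0.907, 0.493 and 0.624 to 4.1, 4.25 and 4.41. All IL-1β libraries were above 4 and all untreated ones below 1. Its mean was 6.3-fold higher (log2 fold change 1.66, SE 0.0985, 95% interval 1.44 to 1.87, adjusted p = 1.43e-07), and with 0.1 added in place of 1 the log2 fold change was 2.52. PTGES2, a membrane-associated synthase encoded on the same chromosome (128120693 to 128128462, minus strand), had means of 24.2 ± 0.56 and 23.9 ± 1.01. Its 95% interval for the log2 fold change was -0.19 to 0.15 (adjusted p = 0.898). PTGES3 encodes the cytosolic synthase, also known as the HSP90 co-chaperone p23 (chromosome 12, 56663341 to 56688408, minus strand), and had means of 225 ± 8.94 and 217 ± 2.25, with an interval of -0.18 to 0.08 (adjusted p = 0.542). It has 5 annotated pseudogenes, RN7SL809P overlaps it on the same strand, and how reads shared with these were counted is not stated. Although PTGES rose, its share of the PTGES and PTGES2 values was 15.1% ± 0.797 with IL-1β, up from 2.71% ± 0.852 (exact permutation p = 0.1, the smallest possible). Over all 3 synthase genes its share was 0.269% ± 0.0799 in untreated cells and 1.73% ± 0.0534 with IL-1β.

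**Figure D2:**
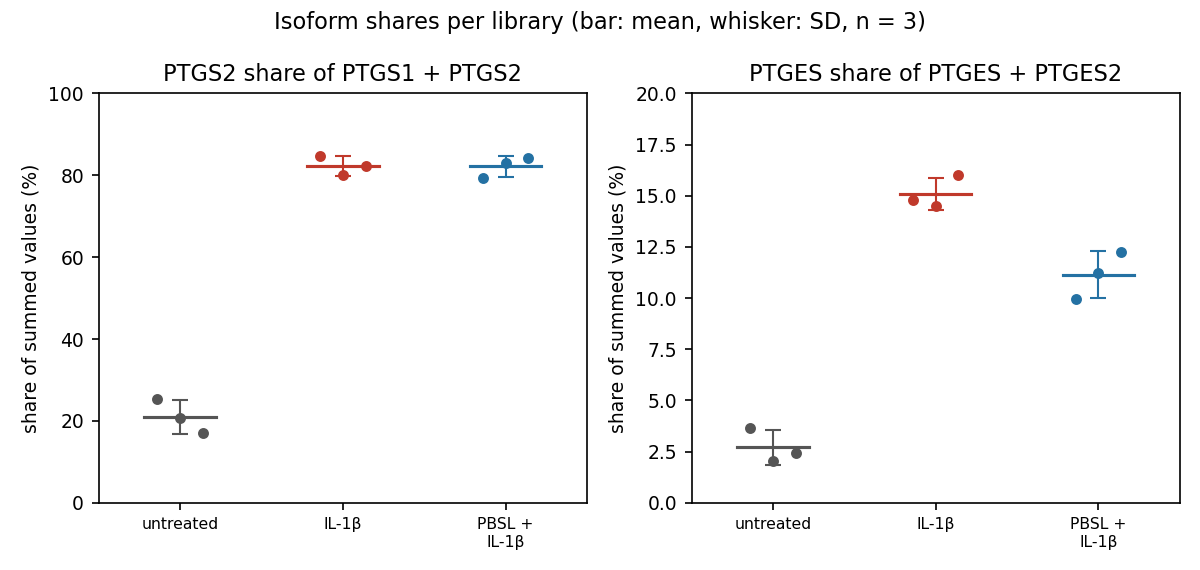
Share of PTGS2 in the summed PTGS1 and PTGS2 values (left) and of PTGES in the summed PTGES and PTGES2 values (right), in percent (vertical axes, from 0), for each library by group (horizontal axis). Bars are means and whiskers SDs of 3: the PTGS2 share is near 82% in both groups given IL-1β and near 21% in untreated cells, and the PTGES share is 2.71%, 15.1% and 11.1% in the order plotted.

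The receptor and the catabolic enzyme for prostaglandin E2 gave no call. PTGER4 (chromosome 5, 40679498 to 40693735, plus strand) was at 1.68 ± 0.187 in untreated cells and 1.53 ± 0.0607 with IL-1β, with overlapping libraries and an interval of -0.27 to 0.10 (adjusted p = 0.484). TTC33 overlaps it on the other strand, it has 2 annotated pseudogenes, and whether reads were counted by strand is not stated. HPGD (chromosome 4, 174490177 to 174523154, minus strand) was at 0.397, 0.126 and 0.212 in untreated cells, and at 0.084, 0.07 and 0.151 with IL-1β. These values are under the filter, the groups overlapped, and the untreated libraries differed among themselves by more than the group means did. Without a filter its log2 fold change was -0.17 (adjusted p = 0.117).

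ALOX5AP (chromosome 13, 30713478 to 30764426, plus strand) rose by less than PTGS2 and PTGES. Its values were 5.1, 5.98 and 5.46 in untreated cells and 7.91, 7.92 and 7.34 with IL-1β. The groups did not overlap, and the mean was 1.4-fold higher (log2 fold change 0.42, SE 0.0881, 95% interval 0.23 to 0.62, adjusted p = 0.003). ALOX5, which encodes the 5-lipoxygenase that FLAP serves, reached 0.016 at most in any library. ALOX5AP is also a gene of white blood cells. Of 11 leukocyte and macrophage markers, 6 reached 1 in some library, and none was at 0 in all. Their summed value was 75.8 to 83.6 in untreated, 103 to 107 in IL-1β and 88.5 to 93.6 in PBSL libraries. Most of this was CD68, which many cell types make (71.6, 95.7 and 82.2 on average). Of the rest, 5 reached 1 in some library. CSF1R averaged 2.81, 3.78 and 3.43 in untreated, IL-1β and PBSL libraries, FCER1G 0.716, 1.59 and 1.79, ITGB2 1.2, 1.61 and 1.09, LAPTM5 1.64, 1.29 and 1.44, and CD3E 1.17, 0.733 and 0.656. The other 5 stayed below 1, at most 0.53 for CD14, 0.393 for PTPRC (CD45), 0.236 for MS4A1, 0.138 for TYROBP and 0.092 for ITGAM. The markers thus did not move in one direction, and their part in the change of ALOX5AP was not tested.

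NOS2 (chromosome 17, 27756766 to 27800499, minus strand), a gene that IL-1β induces in many cells, was not higher here. Its values were 0.146, 0.213 and 0.195 in untreated cells, 0.069, 0.077 and 0.084 with IL-1β, and 0.11, 0.151 and 0.156 with PBSL and IL-1β. All 3 IL-1β libraries were below all the others, at levels under the filter. With no filter on low values, IL-1β against untreated cells gave a log2 fold change of -0.14 (adjusted p = 0.0086), and PBSL against IL-1β gave 0.08 (adjusted p = 0.103). A gene of the same strand overlaps NOS2, and there are 4 annotated NOS2 pseudogenes.

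The effect of PBSL was read against cells with IL-1β alone, the same libraries as in the comparison above. PTGS2, which of these 10 genes IL-1β raised most, was not called. PTGES and ALOX5AP fell to 0.74 and 0.809 times their levels with IL-1β alone, and PTGES3 rose 1.24-fold. Of 8 genes tested, 1 was higher, where 11.5% of all tested genes were, and 2 were lower, where 11% were. Libraries were fully apart for 3 of 8, against 41.8% of all tested genes. The share higher and the share fully apart lie near those of all genes. The median log2 fold change was 0.08, against 0.008 for all tested genes.

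PTGS2 was at 7.76, 7.9 and 10.2 with PBSL and IL-1β. PBSL 1 and PBSL 2 lay within the range of IL-1β alone and PBSL 3 above it. The mean of 8.62 ± 1.38 was 1.11 times that with IL-1β alone (log2 fold change 0.13, SE 0.106, adjusted p = 0.422). The 95% interval, -0.11 to 0.36, holds no fall larger than 0.11 on the log2 scale. PTGS1 was at 2.03, 1.62 and 1.9, overlapping IL-1β alone, with an interval of -0.10 to 0.29 (adjusted p = 0.475). The PTGS2 share of both cyclooxygenases was 79.3%, 83% and 84.3% (82.2% ± 2.64), overlapping IL-1β alone. With 3 libraries against 3 the exact permutation test cannot go below 0.1, so its p of 1 does not show that the shares are alike. PLA2G4A was at 2.31, 2.03 and 2.49, with an interval of -0.07 to 0.47 (adjusted p = 0.257). PBSL thus left no called change in the phospholipase or in either cyclooxygenase.

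Of the 3 prostaglandin E synthase genes, PTGES was the one that fell. Its values were 2.89, 3.52 and 3.05 with PBSL and IL-1β, all below the lowest IL-1β library and all above the untreated ones. The mean of 3.15 ± 0.327 was 0.74 times that with IL-1β alone (log2 fold change -0.34, SE 0.0985, 95% interval -0.56 to -0.13, adjusted p = 0.0285). This call was close to the threshold. It was lost without IL-1β 1, 2 or 3 (adjusted p = 0.0642, 0.0819 and 0.0943), without PBSL 1 (0.0557) or PBSL 3 (0.0774), with 0.1 added in place of 1 (0.0945) and with no filter (0.0588). The PTGES share of the PTGES and PTGES2 values was 11.1% ± 1.15, with no overlap with IL-1β alone (exact permutation p = 0.1, the smallest possible). Over all 3 synthase genes it was 1.06% ± 0.0947.

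PTGES3 rose. Its values were 249, 271 and 288 with PBSL and IL-1β, above all 6 other libraries. PBSL 1 was the lowest of the 3. The mean of 269 ± 19.3 was 1.24 times that with IL-1β alone (log2 fold change 0.31, SE 0.0573, 95% interval 0.18 to 0.43, adjusted p = 0.00507). PTGES2 was at 26.1, 27.8 and 21.8, on both sides of the IL-1β libraries, with an interval of -0.10 to 0.24 (adjusted p = 0.572). PTGER4 was at 1.54 ± 0.18, with an interval of -0.18 to 0.20 (adjusted p = 0.961). HPGD, at 0.068 to 0.104, stayed under the filter.

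ALOX5AP fell to 6.99, 5.36 and 6.4. All 3 were below IL-1β alone, and PBSL 2 lay within the untreated range. The mean of 6.25 ± 0.822 was 0.809 times that with IL-1β alone (log2 fold change -0.27, SE 0.0881, 95% interval -0.47 to -0.08, adjusted p = 0.0452). This call too was close to the threshold. It was lost when any 1 library other than PBSL 1 was left out, with adjusted p from 0.0507 to 0.148, the highest of these without PBSL 2. It was also lost with no filter (0.0901), with equal library sums (0.0601) and with only the 2 groups fitted (0.0648). The summed leukocyte and macrophage markers, given above, were lower with PBSL as well, mostly through CD68. CSF1R, ITGB2 and CD3E also averaged lower than with IL-1β alone, while FCER1G and LAPTM5 averaged higher. The part of these markers in this result was not tested.

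**Figure D3:**
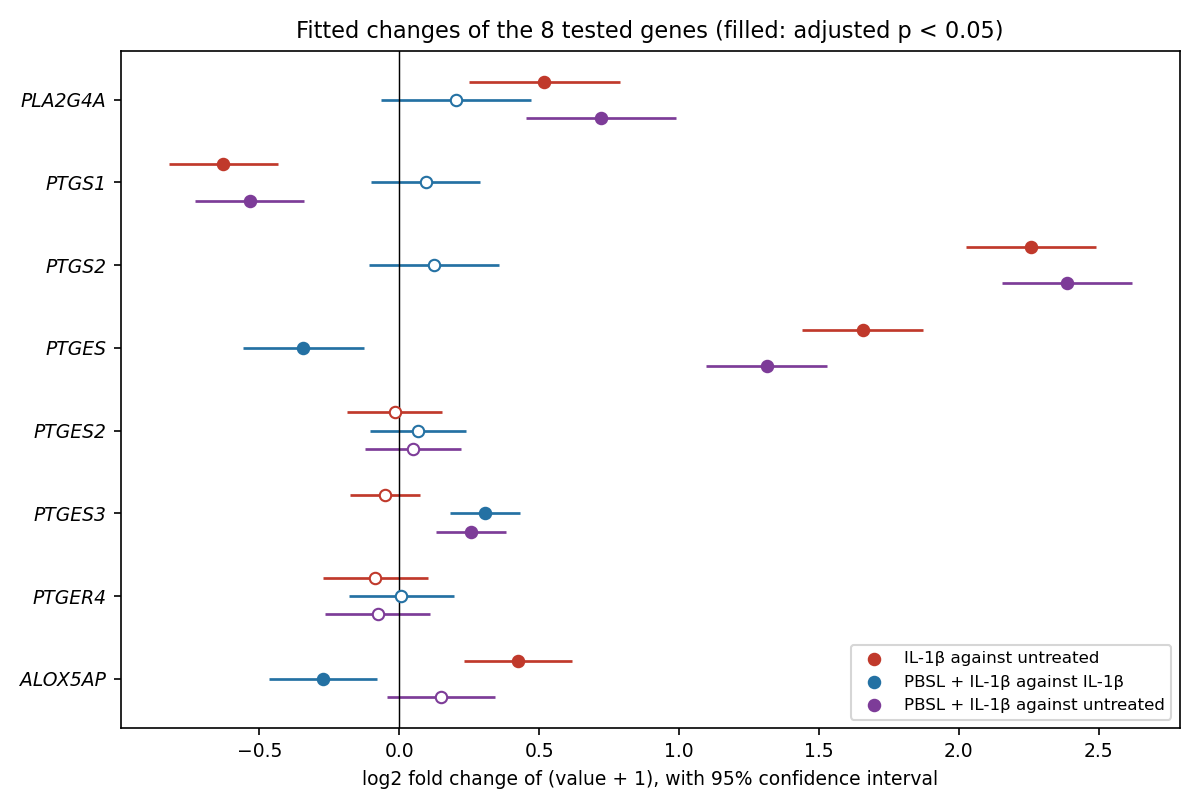
Log2 fold change of (value + 1) with its 95% confidence interval (horizontal axis) for the 8 tested genes (vertical axis) in 3 comparisons, told apart by colour. Filled points passed limma's test at an adjusted p under 0.05: PTGS2 and PTGES are far to the right against untreated cells, and all changes between the PBSL and IL-1β groups lie between -0.34 and 0.31.

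Set against untreated cells, the PBSL group had PTGS2, PTGES, PLA2G4A and PTGES3 higher and PTGS1 lower. This comparison shares the untreated libraries with the one on IL-1β alone, so the results are not independent. Of 8 genes, 4 were higher, where 22.3% of all tested genes were, and 1 was lower, where 19.3% were. Libraries did not overlap for 5, against 48.2% of all tested genes, and the median log2 fold change was 0.20 against 0.03. The genes higher again include PTGS2, PTGES and PLA2G4A, so the limit set by the filter holds here too. PTGS2 was 10.3-fold higher (log2 fold change 2.39, adjusted p = 1.19e-08), PTGES 4.67-fold (1.31, adjusted p = 1.11e-06) and PLA2G4A 2.3-fold (0.72, adjusted p = 0.000669). PTGES3 was 1.2-fold higher (0.26, adjusted p = 0.00392) and PTGS1 was at 0.593 times its untreated mean (-0.53, adjusted p = 0.000583). ALOX5AP, at 1.13 times its untreated mean, was not called (0.15, 95% interval -0.04 to 0.34, adjusted p = 0.192), but was without PBSL 2 (0.24, adjusted p = 0.0348).

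A wider list of 88 genes of the same pathways, by role, held 85 in the table, of which 51 passed the filter and 30 were below 1 in all libraries. The other 3, MGLL, DAGLA and DAGLB, were not analysed here. With IL-1β, 15 of these 51 rose, 13 fell and 23 did not pass the test, against 16.2% higher and 16% lower among all tested genes, with a median log2 fold change of 0.0092. Those that rose include PLA2G4C, PTGIR and ALOXE3, which passed the filter only through libraries given IL-1β, where they are high. The count that rose therefore leans upward and is a description only. With PBSL against IL-1β, 6 rose, 8 fell and 37 did not pass, against 11.5% higher and 11% lower among all tested genes, with a median of -0.05. Those that fell include PTGIR, which passed only through the IL-1β libraries, so the count that fell leans upward too. The share that rose with PBSL lies near that of all genes. The same all-gene shares are the background for the counts by role that follow, which rest on 15 genes or fewer each. These 14 calls became 7 without IL-1β 2 and 8 without IL-1β 3. Apart from LTB4R, genes named next with a test had a call in one of these comparisons and a change of at least 0.5 on the log2 scale. Others are named only for their role.

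Among phospholipases and other suppliers of arachidonic acid, 4 of 10 rose and 3 fell with IL-1β. PLA2G4C, a calcium-independent relative of PLA2G4A, passed the filter only through libraries given IL-1β, since its untreated libraries were all below 1. It went from 0.619 ± 0.0415 to 2.41 ± 0.27 (log2 fold change 1.07, adjusted p = 1.51e-06), or 1.8 with 0.1 added. Of the genes of this role it was the 1 called with PBSL, falling to 1.67 ± 0.0966 (-0.35, adjusted p = 0.0139), a call lost without IL-1β 2 (adjusted p = 0.0656) or IL-1β 3 (adjusted p = 0.0584). PLA2G16, now named PLAAT3, a phospholipase of the cytosol and membranes, rose from 20.5 ± 0.425 to 30.8 ± 0.814 (0.57, adjusted p = 5.11e-06). LPCAT2, which returns fatty acids to lysophospholipids, fell from 5.67 ± 0.812 to 3.64 ± 0.124 (-0.52, adjusted p = 0.00144).

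Of 7 other tested genes of prostanoid synthesis, 1 rose and 4 fell with IL-1β. AKR1B1, an aldose reductase that can also make prostaglandin F2α, stood at 493, 475 and 545 in untreated cells and at 1524, 1471 and 1493 with IL-1β. Its groups were far apart, and the log2 fold change was 1.57 (adjusted p = 6.32e-09). With PBSL it stood at 1403, 1229 and 1236, below IL-1β alone (-0.22, adjusted p = 0.0359). That call was lost without any 1 of the IL-1β libraries or without PBSL 2 or PBSL 3, with adjusted p from 0.0852 to 0.119, and with no filter (0.0848) or no variance trend (0.0552). GSTM2, a glutathione transferase, fell from 16 ± 0.857 to 9.84 ± 0.344 with IL-1β (-0.65, adjusted p = 3.24e-05). PTGDS, HPGDS and PTGIS, the synthases of prostaglandin D2 and prostacyclin, reached at most 0.256, 0.125 and 0.071.

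Of 8 other prostanoid receptor genes only PTGIR and PTGFR passed the filter. PTGIR, the prostacyclin receptor, passed only through the IL-1β libraries. It was at 0.072, 0.146 and 0.114 in untreated cells, 1.25, 1.12 and 1.04 with IL-1β and 0.579, 0.446 and 0.56 with PBSL and IL-1β. The 3 groups did not overlap. The log2 fold change was 0.94 with IL-1β (adjusted p = 6.22e-06), or 2.56 with 0.1 added, and -0.48 with PBSL against IL-1β (adjusted p = 0.0045), or -0.98 with 0.1 added. PTGFR, the prostaglandin F2α receptor, was at 19.7, 19.1 and 21.8 on average and was not called. Among 5 tested genes of prostaglandin breakdown and transport, 1 rose with IL-1β, and with PBSL 1 rose and 2 fell.

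Of 9 tested lipoxygenase and leukotriene enzyme genes, 2 rose and 2 fell with IL-1β. MGST1, a microsomal glutathione transferase of the FLAP family, rose from 79.6 ± 3.57 to 119.5 ± 3.56 (0.58, adjusted p = 2.22e-05). ALOXE3, an epidermal-type lipoxygenase, passed the filter only through libraries given IL-1β, with all untreated libraries below 1, and rose from 0.907 ± 0.0486 to 1.74 ± 0.123 (0.52, adjusted p = 0.00029), or 0.87 with 0.1 added. CYP4F3, which inactivates leukotriene B4, fell with PBSL from 1.63 ± 0.148 to 0.831 ± 0.244 (-0.53, adjusted p = 0.00842), or -0.92 with 0.1 added. CYP4F3 resembles other CYP4F genes, and the handling of shared reads is not stated. ALOX12 and the receptor OXER1 were listed at 0, and LTC4S, the leukotriene C4 synthase, reached 0.431 at most. Of 5 leukotriene receptor genes, 2 passed the filter, LTB4R and LTB4R2. LTB4R averaged 3.31, 4.91 and 3.67 in untreated, IL-1β and PBSL libraries and was called higher with IL-1β (log2 fold change 0.46, adjusted p = 0.0117). Neither was called with PBSL against IL-1β, but LTB4R was just above the threshold (-0.36, adjusted p = 0.0504), with no overlap.

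Around nitric oxide, 5 of 15 tested genes rose and 4 fell with IL-1β, while NOS1 and NOS3 reached at most 0.115 and 0.09. GCH1, the first enzyme in making the cofactor tetrahydrobiopterin, stood at 1.52, 1.63 and 1.54 in untreated cells and at 4.39, 4.37 and 4.88 with IL-1β, with no overlap (log2 fold change 1.11, adjusted p = 1.11e-06). With PBSL it stood at 4.33 ± 0.529 and was not called (adjusted p = 0.631). ASS1, which remakes arginine from citrulline, rose from 1.33 ± 0.0328 to 2.45 ± 0.282 (0.57, adjusted p = 0.000243). ARG2, an arginase, fell from 10.9 ± 1.55 to 7.24 ± 0.583 (-0.52, adjusted p = 0.00237). DDAH1, which removes methylated arginines that inhibit nitric oxide synthases, fell from 47.5 ± 3.62 to 25.2 ± 0.331 (-0.88, adjusted p = 8.81e-07). None of these 4 was called with PBSL.

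**Figure D4:**
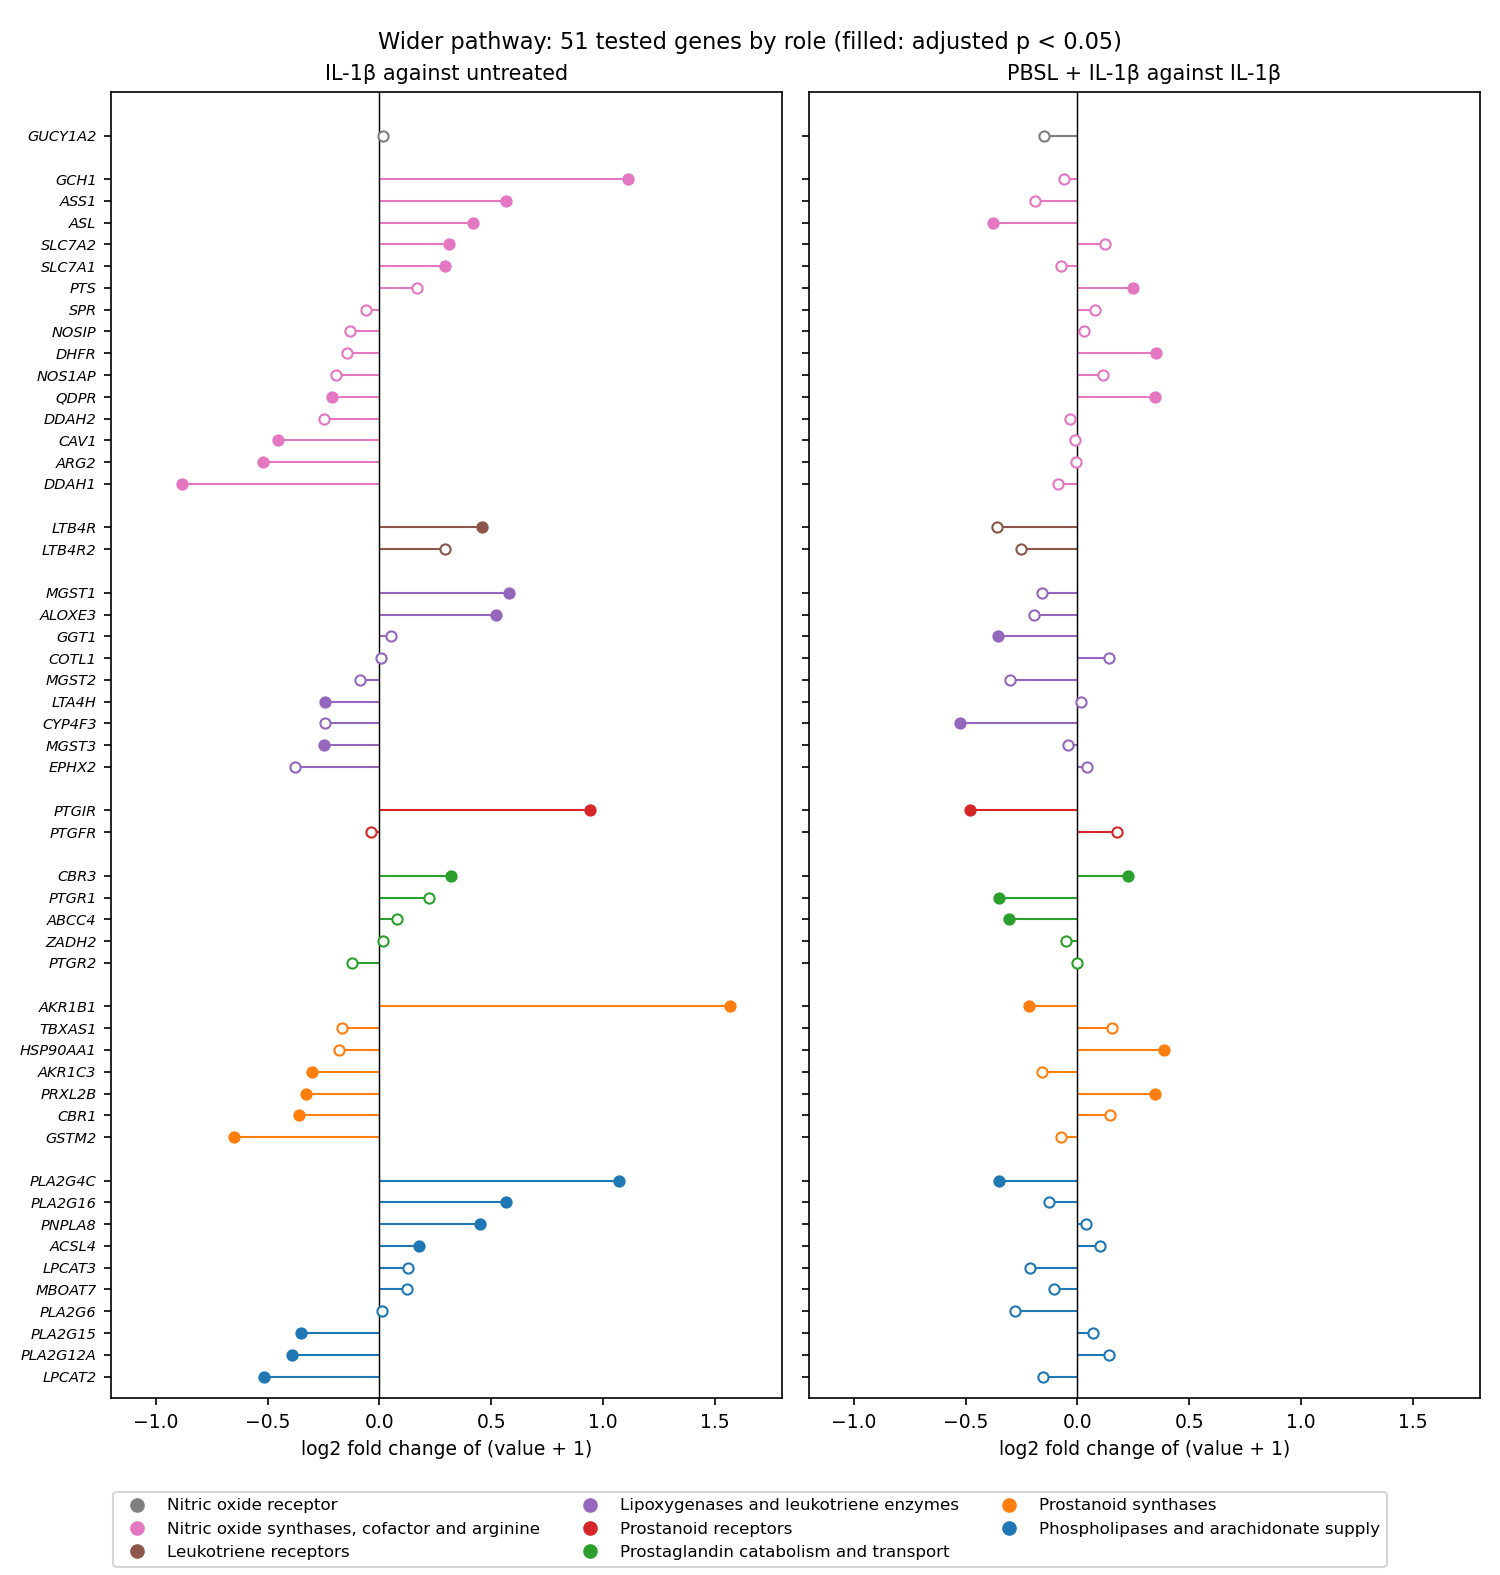
Log2 fold change of (value + 1) (horizontal axes) for the 51 tested genes of the wider pathway (vertical axis, grouped and coloured by role), for IL-1β against untreated cells (left) and PBSL + IL-1β against IL-1β (right). Filled points passed the test: AKR1B1, GCH1 and PLA2G4C are farthest right with IL-1β and DDAH1 farthest left, and with PBSL CYP4F3 is farthest left. This order holds with 1 added. With 0.1 added, PTGIR and PLA2G4C are ahead of AKR1B1 (2.56 and 1.8 against 1.57), and PTGIR is ahead of CYP4F3 (-0.98 against -0.92).

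Genes whose log2 values ran most like those of each called gene over the 9 libraries are given as a description. The 9 libraries form 3 groups, so a high Pearson r mainly reflects the group levels. For PTGS2 these were HAS2 (r = 0.998), CLMP (r = 0.997) and SERPINB2 (r = 0.997), of which HAS2 averaged 2.4, 12.3 and 13.5 in untreated, IL-1β and PBSL libraries. For PTGES they were MCL1 (r = 0.992), SERPINA6 (r = 0.991) and ITPRIP (r = 0.989). For PTGES3 they were CKAP2 (r = 0.995), TMPO (r = 0.995) and ERCC6L (r = 0.993), of which CKAP2 averaged 72.2, 67.6 and 93.3. The nearest genes to PTGS1 were NUDT4 (r = 0.985), TTC38 (r = 0.981) and SPTBN1 (r = 0.976), and those to ALOX5AP were C5orf15 (r = 0.984), ATRN (r = 0.972) and BTN3A3 (r = 0.97). PLA2G4A had the least close neighbours, B3GNT2 (r = 0.944), IRF2 (r = 0.941) and SIN3A (r = 0.94).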

How the data were processed

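The authors deposited 1 table of normalized expression signal values, with 1 column per library and no header line on the normalization. Trim Galore, STAR, HTSeq and hg38 are named, without versions, per the submitters' processing notes. The lowest positive values fell with transcript length (Spearman's rho -0.722 across genes), so the signal is per length. Whether it is FPKM or TPM is not given in the sources used here. Of ratios of low values between 2 libraries, 33.9% to 75.4% (median 61.1%) lay within 5% of a ratio of small whole numbers, with no chance share computed. That is not nearly all, so reads were not recovered and no count test was run. Depth per library is unknown.

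Rows reaching 1 in 3 or more libraries were tested, 11924 of 19389. limma 3.58.1 in R 4.3.3, with a variance trend, was fitted across all genes to log2(value + 1) of all 9 libraries with 1 mean per group. Calls are at a Benjamini-Hochberg adjusted p under 0.05, 2-sided. The fit was tested on simulated data. Symbols of the wider list not found directly were matched through older names. The genes and lists were chosen with earlier results of these data known. Pathway genes were named with a test if called with IL-1β or PBSL and changed by at least 0.5 on the log2 scale, and LTB4R was added. The alternatives for the named pathway genes and the shares were added after the data were seen. Positions are from GENCODE 29 and promoters from RefSeq. Replicate numbers were not modelled: deviations of same-numbered libraries correlated at -0.225 to 0.068. Python 3.11.15 with pandas 2.3.3 made the tables.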

Additional observations from a re-analysis of the deposited data

How the results depend on the processing

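Every call of IL-1β or PBSL against untreated cells among the 10 genes kept its direction and its call under each alternative in which the gene was tested (other pseudocounts, filters, scalings and variance models, a 2-group fit, a replicate block, and each library left out), with the gain of ALOX5AP given above. With PBSL against IL-1β this held for PTGES3 but not for PTGES and ALOX5AP, so the count of genes lower was 2 as fitted and 1 with a pseudocount of 0.1, with equal library sums and with only the 2 groups compared. It was 0 with no filter and with the replicate block, 1 with the filter at 5, and 0 to 1 with a library left out. Whether the replicate numbers pair the libraries is not known, since the correlations given above show no pairing but cannot exclude it. With the replicate block the adjusted p for PBSL against IL-1β was 0.0534 for PTGES, 0.0764 for ALOX5AP and 0.0503 for AKR1B1. With a filter at 5, only 4 of the genes were tested, so 2 were higher and 0 lower in both comparisons with untreated cells. With no filter NOS2 joined PTGS1, for 2 lower with IL-1β. Called genes in the whole table numbered 2684 for PBSL against IL-1β and 1304 to 3910 with a library left out, where leaving out IL-1β 1, 2 or 3 gave 1451, 1304 and 1355 and leaving out PBSL 2 gave 1434. Over all genes, 1370 higher and 1314 lower with PBSL against IL-1β became 1134 and 1581 with median-ratio rescaling, and 1928 and 1903 with IL-1β became 1643 and 2354 with equal library sums. Called pathway genes numbered 14 and 7 to 21, with 7 without IL-1β 2 and 8 without IL-1β 3. Changes of sign occurred only in uncalled log2 fold changes near 0. For PBSL against IL-1β, PTGER4 was at -0.0079 with median-ratio rescaling and ARG2 at 0.005 with equal library sums. With 1 library left out, PTGER4 ranged from -0.0486 (PBSL 1) to 0.0476, PTGES2 from -0.0042 (PBSL 2) to 0.165, ARG2 from -0.0807 to 0.077 (PBSL 2) and GCH1 from -0.135 to 0.0084 (PBSL 2). PTGES2 ranged likewise from -0.0492 to 0.0067 (IL-1β 3) for IL-1β and from -0.0207 (PBSL 2) to 0.148 for PBSL against untreated cells. The cause of these shifts was not tested. With no counts, the depth behind the values of HPGD, NOS2 and other genes near 0 is unknown.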
